A study of Mus musculus with 12 samples.

Results

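Ribosome footprints of S38D cells were compared between the mitotic and the asynchronous state. S38D cells are mouse B cell lymphoma cells whose RPL12 carries aspartate in place of serine 38. Libraries were chosen by their labels alone, which gave 4 of the 12 libraries of the series, 2 of mitotic and 2 of asynchronous S38D cells. The other 8 libraries came from cells with wild-type (WT) RPL12 and from S38A cells, with alanine at the same position, each with 2 mitotic and 2 asynchronous libraries. They entered the model to estimate the spread and to test whether the change in S38D cells differed. Mitotic cells had been held in nocodazole at 100 ng/mL for 8 hr, washed in PBS and given fresh medium for 10 min. Asynchronous cells carry no such label. The word mitotic is used below as the labels give it. Most called genes of the G2M list described further on were lower in these libraries, and the label itself was not tested. Arrest, drug and release therefore cannot be told apart from the mitotic state in any comparison.

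All groups shared the same line, 19PP, which was made from marrow cells of the genotype Cγ1-Cre; Myc/P110*flSTOP that had been put into a Rag2-/-γC-/- host, a mouse without lymphocytes of its own. Cγ1-Cre drives the recombinase from an immunoglobulin constant region and so in B cells, and flSTOP marks a stop that Cre removes. Every group thus carried these alleles. The labels give the line as 19PP and the growth protocol names 19DN, a subline sorted after Flp had removed its GFP and hCD2 reporters. The labels do not say how RPL12 was changed, how many clones stand behind a genotype, or whether both libraries of a state were grown as separate cultures. The p-values below therefore measure the spread between libraries, which may be technical. The deposited gene IDs could not be paired with gene symbols here, so genes are given by Ensembl ID with no role, and neither the level of RPL12 itself nor the markers of the labelled cell type were analysed here.

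RPL12, also called uL11, sits at the base of the stalk of the large ribosomal subunit, where translation factors bind. Serine 38 is a phosphorylation site of this protein. Alanine at this position cannot be phosphorylated, and aspartate carries a negative charge that is often used to imitate a phosphate. Nocodazole blocks the assembly of microtubules, so that dividing cells stop before their chromosomes separate. In mitosis transcription is largely shut down and translation is altered. Ribosome profiling sequences the mRNA fragments that ribosomes shield from nuclease, and a footprint count thus combines the amount of an mRNA with how heavily it is translated.

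The mitotic S38D libraries held 274071 and 298198 reads in coding sequence, against 505500 and 465584 in the asynchronous S38D libraries, so depth moved with state. A read was found for 9313 and 9340 gene IDs in mitotic S38D cells, against 9818 and 9716 in asynchronous S38D cells. Reads outside counted features were 27.9 and 28.3% of uniquely aligned reads in the mitotic S38D libraries, against 18 and 21.8% in the asynchronous ones. Alignments to more than 1 place were 72.4 and 72.5% in mitotic S38D cells, against 65.3 and 66.9% in asynchronous S38D cells. None of these measures overlapped between the states, and with 2 libraries against 2 the smallest two-sided exact permutation p is 0.333. The part of these library measures in the results was not tested, apart from depth, for which a value is given with the first count below. The 2 libraries of a state correlated over well-covered genes at r = 0.952 in mitotic and 0.955 in asynchronous S38D cells, on log2 CPM, read counts scaled to a common library total.

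About as many genes had more footprints in mitotic S38D cells as had fewer. Of 6692 genes tested, which held 97.4 to 97.5% of the coding reads of each S38D library, 708 were higher (10.6%) and 727 lower (10.9%) in mitotic cells at an adjusted p under 0.05, which is 1435 genes or 21.4% in all. In these bulk libraries, fewer cells with an mRNA and fewer footprints per cell cannot be told apart. The test was edgeR's quasi-likelihood F test with Benjamini-Hochberg adjustment. The median log2 change was 0.88 for the genes that rose, -1.03 for those that fell and -0.03 for all genes tested. Among called genes, large changes were more often losses. The direction of calls moved with level, with 27 higher and 85 lower among the 1673 genes of lowest CPM. Among the 1673 of highest CPM 390 were higher and 320 lower. The part of level and depth in the large losses was not tested. At least 2-fold changes were passed by 275 genes that rose and 387 that fell, and at least 4-fold changes by 12 that rose and 50 that fell. At 8-fold or more there were 4 that rose and 9 that fell. The libraries of the 2 states did not overlap for 58% of all genes tested, 27.7% with mitotic and 30.3% with asynchronous libraries higher, and for 1434 of the 1435 called. With DESeq2's size factors in edgeR 774 were higher and 667 lower, so which direction held more genes depended on the scaling. With the asynchronous S38D libraries thinned to 286134 coding reads, the mean of the mitotic ones, 1221 genes passed, 581 higher and 640 lower. Without replicate 1 of the mitotic S38D libraries 868 genes passed, without replicate 2 782 did, and DESeq2 called 749.

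**Figure D1:**
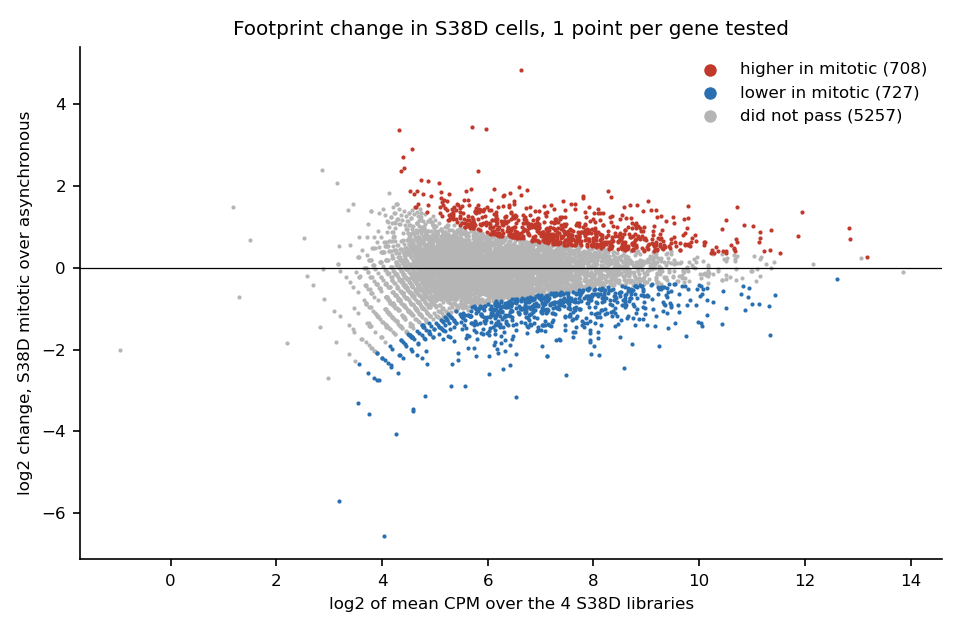
Each point is 1 of the 6692 genes tested, by the log2 of its mean CPM over the 4 S38D libraries (x axis) and its log2 change in mitotic over asynchronous S38D cells (y axis). The 708 genes that rose (red) and the 727 that fell (blue) flank those that did not pass (grey), and smaller changes passed the test at higher levels.

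The changes reached the most abundant footprints. Genes that rose took 27.7 and 28% of coding reads in the mitotic S38D libraries, against 16.1 and 16.9% in the asynchronous ones. Genes that fell took 11.8 and 11.7% in mitotic S38D cells, against 22.3 and 21.5% in asynchronous S38D cells. These shares describe genes chosen by the same test and carry no test of their own. Genes that did not pass held 58.0 and 57.7% of coding reads in mitotic S38D cells and 59.0 and 59.1% in asynchronous S38D cells. Among the 100 most abundant genes, all with a mean of at least 1052 CPM over the S38D libraries, 34 rose and 22 fell, with a median log2 change of 0.09. Of all genes tested 10.6% rose and 10.9% fell. Smaller changes passed at high levels, so these counts do not show that abundant genes changed more.

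The share of genes called followed the read depth behind them. Of the 1673 genes with the lowest CPM 6.69% passed, with 27 higher and 85 lower. In the next 1673 genes 12.2% passed and in the 1673 after them 24.4%. Of the 1673 genes with the highest CPM 42.4% passed, with 390 higher and 320 lower. The smallest log2 change called was 1.21 among the lowest of these and 0.27 among the highest, where the median standard errors were 0.51 and 0.19. Smaller changes of low genes were therefore not detectable at this depth.

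The gene that rose most among those with a mean of at least 10 CPM in S38D cells was ENSMUSG00000021250.13. It had 48 and 57 reads in the mitotic S38D libraries, against 3 and 3 in the asynchronous ones, which is 183.2 and 200 CPM against 6.16 and 6.65 CPM. Both mitotic libraries lay far above both asynchronous ones, and the absence of overlap was a condition of the choice. Its log2 change was 4.83 ± 0.39 (SE, n = 2 libraries each, edgeR adjusted p = 8.64e-16). In the mitotic libraries of the other genotypes it stood at 161.0 and 186.6 CPM in WT cells and 268.5 and 270.2 CPM in S38A cells, and it had 0 reads in both asynchronous WT libraries and 0 and 1 read in the asynchronous S38A libraries. The mitotic change in S38D cells did not pass the test of a difference from WT cells (edgeR adjusted p = 0.707) or from S38A cells (adjusted p = 0.455).

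The second largest rise was that of ENSMUSG00000003545.3. It was at 80.1 and 112.3 CPM in mitotic S38D cells, against 6.16 and 11.1 CPM in asynchronous S38D cells. Its log2 change was 3.45 ± 0.45 (SE, n = 2 each, edgeR adjusted p = 8.62e-09), beside 2.84 in WT cells and 1.92 in S38A cells. The 2 states did not overlap in any of the 3 genotypes, which the choice required in S38D cells.

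The largest fall among genes of that mean level was that of ENSMUSG00000020672.14, which had 0 reads in both mitotic S38D libraries and 17 and 14 reads, or 34.9 and 31.0 CPM, in the asynchronous ones. Against a floor of 3 reads over the 2 mitotic libraries together, it was at least 6.09-fold lower in mitotic S38D cells (edgeR adjusted p = 6.47e-05). Mitotic WT cells averaged 8.16 CPM against 25.0 CPM in asynchronous WT cells, and mitotic S38A cells averaged 32.6 CPM against 52.9 CPM in asynchronous S38A cells. The difference of the mitotic change between S38D and S38A cells did not pass (edgeR adjusted p = 0.0749).

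Next among genes of that mean level came ENSMUSG00000079355.5, with 1 and 0 reads in the mitotic S38D libraries and 16 and 18 reads, or 32.8 and 39.9 CPM, in the asynchronous ones. The ratio of mitotic to asynchronous reads was 0.0499, with an exact binomial 95% interval of 0.00123 to 0.298 that covers counting error only. Its fitted log2 change was -4.07 ± 0.88 (SE, n = 2 each, edgeR adjusted p = 0.000293). Without replicate 2 of the mitotic S38D libraries it was -3.11, with an adjusted p of 0.0314, the highest over the alternatives, whose lowest was 2.53e-05. Without replicate 1 no mitotic read was left, and the fitted value of -6.72 is no bound.

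**Figure D2:**
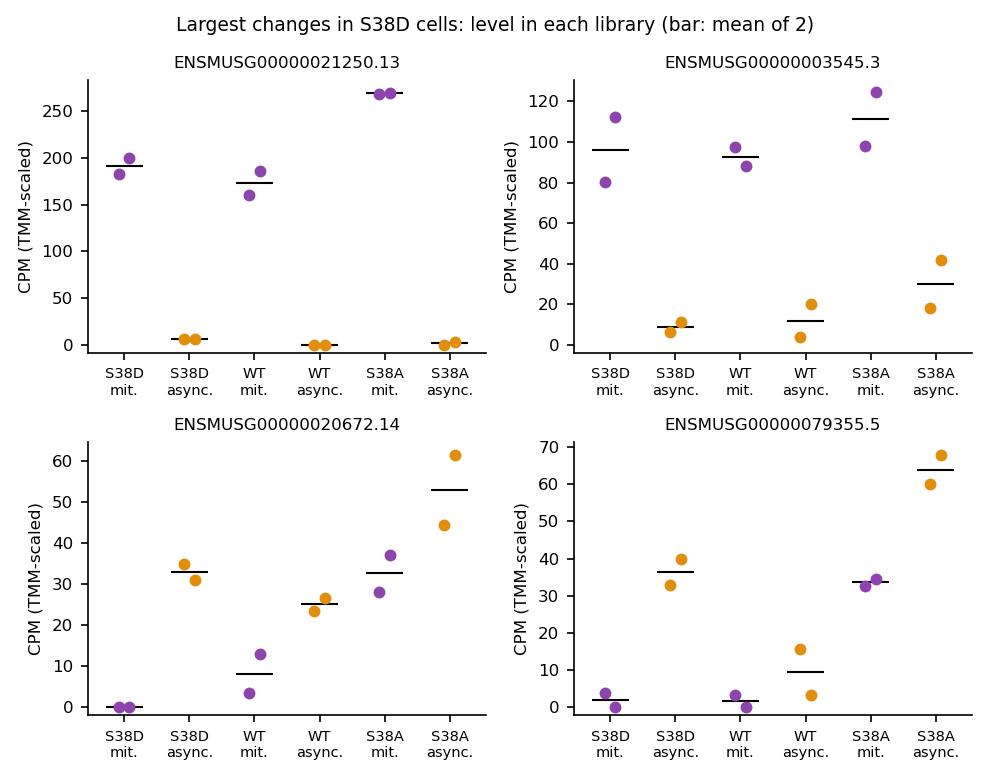
Each point is the TMM-scaled CPM of 1 library and each bar the mean of the 2 libraries of a group, for the 2 genes that rose most and the 2 that fell most in S38D cells among called genes with a mean of at least 10 CPM and no overlap of states. That the states are apart in S38D cells was a condition of the choice and is no result. WT and S38A libraries are shown beside them.

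Few IDs had no reads in 1 state and at least 10 in the other, the minimum set for this count. IDs absent from 1 state with fewer reads in the other were not counted. Among all 22520 gene IDs, 10 had 0 reads in both mitotic S38D libraries and 10 to 31 reads in the asynchronous ones, with reads in both of those. The opposite pattern was found for 1 ID, whose 22 mitotic reads all came from 1 library. The minimum was set in reads, and the asynchronous S38D libraries were deeper, at a mean of 485542 against 286134 coding reads. The 2 counts are therefore not on an equal footing, and the part of depth in them was not tested. Of the IDs with either pattern 2 were tested and both were called as lower, a direction set by the choice of 0 mitotic reads.

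The cell cycle was described with lists of genes taken from marker gene pairs shipped with the scran package, which orders pairs of Ensembl IDs by phase. In cycling cells, mRNAs for DNA replication peak around S phase and those for chromosome segregation toward G2 and mitosis. These pairs were not made from ribosome footprints, and how well they mark phase in such data was not tested. Of 67 tested genes of the G2M list, 24 fell (35.8%) and 2 rose (2.99%) in mitotic S38D cells, against 10.9 and 10.6% of all genes tested. The median log2 change of the list was -0.35, beside -0.03 for all genes. Of the 67 genes 49 were below 0, against 51.7% of all genes tested. Summed over the list, the level was 10661 and 11485 CPM in the mitotic S38D libraries, against 14138 and 14138 CPM in the asynchronous ones. The number that fell was 14 without replicate 1 of the mitotic S38D libraries, 13 without replicate 2, and 11 with DESeq2, and 1 gene rose without replicate 2.

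The S list also held more genes that fell than rose. Of its 74 tested genes 18 fell (24.3%) and 6 rose (8.11%) in mitotic S38D cells, with a median log2 change of -0.25. Its summed level was 13244 and 13292 CPM in mitotic S38D cells, against 15786 and 15598 CPM in asynchronous S38D cells. Without replicate 1 of the mitotic S38D libraries 10 fell, without replicate 2 9 did, and with DESeq2 11 did, while those that rose were 3 without replicate 2 and 3 with DESeq2. In the G1 list few genes passed in either direction. Of its 81 genes 7 rose (8.64%) and 3 fell (3.70%), with a median log2 change of 0.06. Without replicate 2 of the mitotic S38D libraries 4 rose, and DESeq2 called 4 that rose. Without replicate 1 of the mitotic S38D libraries 1 fell, and without replicate 1 of the asynchronous ones the median was -0.01. Its summed level was 14183 and 14502 CPM in mitotic S38D cells and 13346 and 14781 CPM in asynchronous S38D cells, and these overlapped.

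The pair scores, the percent of a phase's pairs whose first gene exceeded the second, separated the states as well. The G2M score was 50.2 and 49.6% in the mitotic S38D libraries, against 56.1 and 55.1% in the asynchronous ones. The S score was 41.3 and 41.3% in mitotic and 47.7 and 46.8% in asynchronous S38D cells. The G1 score was 46.0 and 46.8% in mitotic and 37.2 and 38.5% in asynchronous S38D cells. The G2M score and most called genes of the G2M list were thus lower in the libraries labelled mitotic. How well the pairs mark phase in footprints was not tested, so these values do not test that label. Scores and lists were taken from the same pairs, so the scores are no separate evidence. A G1 score also rises when the second genes of its pairs fall, and the summed level of the G1 list overlapped between states. The states did not overlap on any of these scores, and the design cannot reach an exact permutation p below 0.333.

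The G2M list had a median log2 change of -0.35 for S38D, -0.33 for WT and -0.36 for S38A cells. The S list had -0.25 for S38D, -0.13 for WT and -0.10 for S38A cells. No gene of the 3 lists passed edgeR's test of a difference between the mitotic changes in S38D and WT cells, where 4 G2M, 4 S and 9 G1 genes had an unadjusted p under 0.05 and DESeq2 called 0. Over all 6692 genes 4 passed (0.0598%), and 439 (6.56%) had an unadjusted p under 0.05. Against S38A cells 2 genes of the S list passed (2.70%), both with a more negative change in S38D cells, and none of the G2M and G1 lists did, beside 16 of all genes (0.239%). At an unadjusted p under 0.05 there were 4 genes of the S list with a more positive and 10 with a more negative change, 2 and 7 of the G2M list and 4 and 5 of the G1 list, beside 277 and 426 of all genes (10.5% together). DESeq2 called 0 in each list there.

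**Figure D3:**
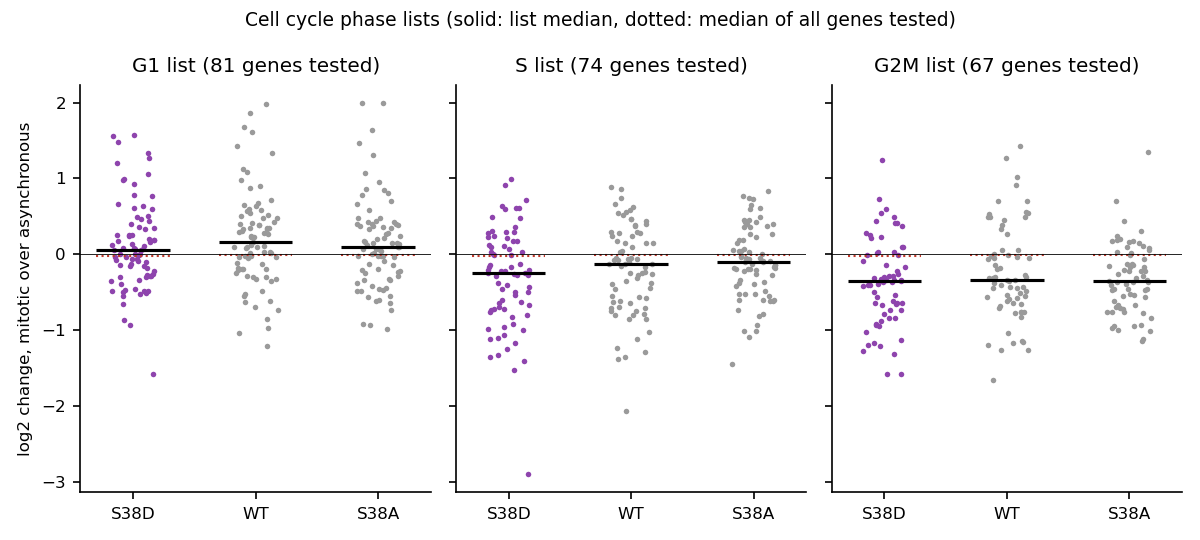
Points are the log2 change in mitotic over asynchronous cells of each tested gene of the G1, S and G2M lists (81, 74 and 67 genes) in S38D, WT and S38A cells. Solid bars are list medians and dotted bars the median of all genes tested. The G2M medians lie at -0.35 in S38D, -0.33 in WT and -0.36 in S38A cells.

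The change in S38D cells ran mostly along that of the other genotypes, whose libraries are separate from those of S38D cells. In WT cells 18.4% of the genes tested passed between states (9.13% higher, 9.26% lower in mitotic cells), and in S38A cells 18.6% did (9.03% higher, 9.59% lower). Of the genes that rose in S38D cells 391 also rose in WT cells, 55.2% of the S38D calls and 64.0% of the WT calls. With S38A cells 342 were shared, 48.3% of the S38D and 56.6% of the S38A calls. Of the genes that fell in S38D cells 386 also fell in WT cells, 53.1% of the S38D and 62.3% of the WT calls, and 352 fell in S38A cells, 48.4% of the S38D and 54.8% of the S38A calls. By sign alone, 686 of the 708 genes that rose in S38D cells were above 0 in WT cells and 658 in S38A cells. Of the 727 that fell, 689 were below 0 in WT cells and 674 in S38A cells. Of all genes tested, 50.2% were below 0 in WT cells and 50.6% in S38A cells. Genes called in opposite directions numbered 3 between S38D and WT cells and 0 between S38D and S38A cells.

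Genes were also grouped by their calls in WT and S38A cells alone. Of 334 genes that rose in both WT and S38A cells, 266 also rose in S38D cells (79.6%), which is 37.6% of the S38D calls, and 330 had a positive change there. Of 310 that fell in both, 252 fell in S38D cells (81.3%), which is 34.7% of the S38D calls, and 307 had a negative change there. Of all genes tested, 10.6% rose and 10.9% fell in S38D cells, and 51.7% had a negative change there. The median log2 change of the first set was 0.84 for S38D, 0.95 for WT and 0.95 for S38A cells. That of the second set was -0.97 for S38D, -0.96 for WT and -0.89 for S38A cells. None of either set was called in the opposite direction in S38D cells.

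Over 4259 genes with a mean of at least 50 CPM, the log2 changes in S38D cells correlated with those in WT cells at r = 0.778 and with those in S38A cells at r = 0.718. This is a description across genes, which are not independent, and all libraries share 1 model. The SD of the log2 changes over these genes was 0.64 for S38D, 0.62 for WT and 0.59 for S38A cells.

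Genes that passed in S38D cells and in neither other genotype numbered 241 that rose and 241 that fell. Being called in S38D cells alone does not show that the change differed. Of those that rose, 0 passed the test of a difference from WT cells and 2 that from S38A cells, and 190 had a positive change in both other genotypes. Of those that fell, 0 passed against WT cells and 1 against S38A cells, and 183 had a negative change in both. Their median log2 change was 0.85 for S38D, 0.41 for WT and 0.33 for S38A cells for those that rose, and -1.08 for S38D, -0.44 for WT and -0.34 for S38A cells for those that fell.

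The test of the difference itself passed for few genes. Between S38D and WT cells the mitotic change differed for 4 of the 6692 genes (0.0598%), 0 with a more positive and 4 with a more negative change in S38D cells by edgeR. At an unadjusted p under 0.05 there were 179 more positive and 260 more negative. DESeq2 called 2 more negative and 0 more positive. With DESeq2's size factors in edgeR 1 was more positive and 3 more negative. Between S38D and S38A cells 16 genes passed (0.239%), 7 more positive (0.105%) and 9 more negative (0.134%) in S38D cells, and with DESeq2's size factors 7 and 5 did. No gene passed both tests. The median standard error of these differences over well-covered genes was 0.37 against WT cells and 0.36 against S38A cells, and the smallest difference called was 1.02 and 0.83 on the log2 scale. Differences below these sizes were mostly not detectable with 2 libraries per group, and larger ones could be missed too.

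Single libraries decided much of these counts. Against WT cells 1 gene passed without replicate 1 or 2 of the mitotic S38D libraries, without replicate 2 of the mitotic WT libraries or without replicate 2 of the asynchronous WT libraries. It was 7 without replicate 1 of the asynchronous S38D libraries and 14 without replicate 1 of the asynchronous WT libraries. Against S38A cells 7 and 5 passed without replicates 1 and 2 of the mitotic S38D libraries, 32 and 35 without replicates 1 and 2 of the asynchronous S38D libraries, and 4 without replicate 1 of the mitotic S38A libraries.

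**Figure D4:**
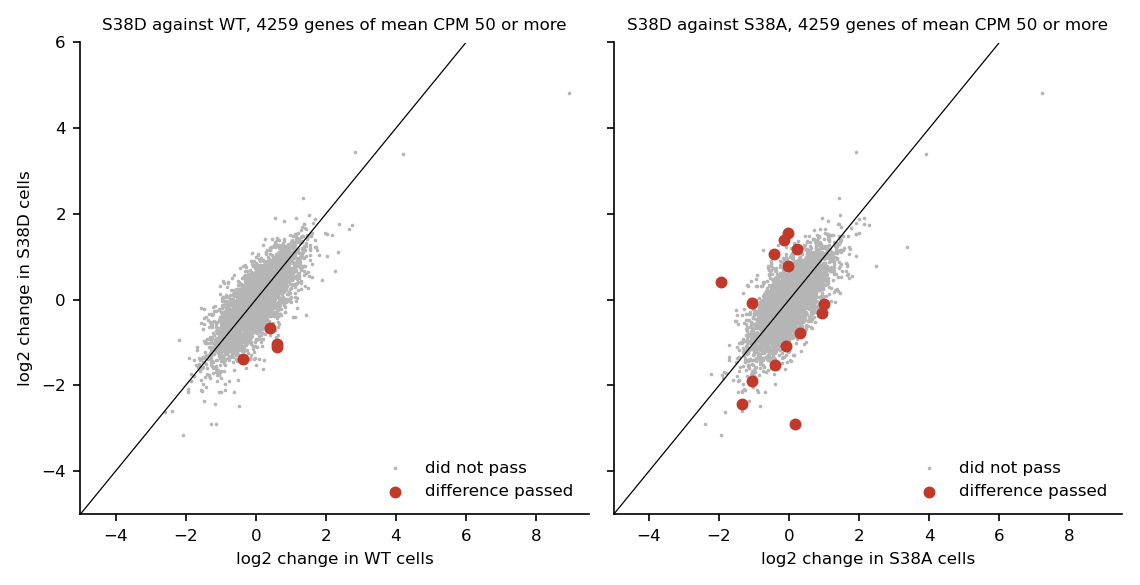
Log2 change in mitotic over asynchronous S38D cells (y axis) against that in WT cells (left, x axis) and in S38A cells (right, x axis), for 4259 genes with a mean of at least 50 CPM over the 12 libraries. Red points passed the test of the difference and the line marks equal change. All 4 genes called against WT cells lie below the line.

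The lowest p against WT cells was that of ENSMUSG00000031004.8, which fell in S38D cells and rose in WT cells. It had 389.2 and 463.0 CPM in the mitotic S38D libraries, against 1018 and 819.6 CPM in the asynchronous ones. In WT cells it had 576.9 and 590.8 CPM in the mitotic libraries, against 328.4 and 427.9 CPM in the asynchronous ones. The states did not overlap in either genotype, and their order was opposite. The log2 change was -1.11 in S38D cells (edgeR adjusted p = 1.69e-07) and 0.62 in WT cells (adjusted p = 0.00668), and the difference was -1.72 ± 0.24 (SE, adjusted p = 2.62e-06). It passed in every alternative fit run, with adjusted p from 1.99e-12 to 0.000597. In S38A cells it had 978.3 and 1001 CPM in the mitotic libraries, against 3373 and 2184 CPM in the asynchronous ones, the same direction as in S38D cells.

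The second was ENSMUSG00000093930.1, at 606.7 and 624.4 CPM in mitotic S38D cells, against 898.6 and 1037 CPM in asynchronous S38D cells. WT cells had 1164 and 1340 CPM in the mitotic state, against 1020 and 859.2 CPM in the asynchronous state. Here too the gene fell in S38D cells and rose in WT cells, with a difference of -1.07 ± 0.20 (SE, edgeR adjusted p = 0.00226). The call was lost without replicate 1 or 2 of the mitotic S38D libraries, without replicate 2 of the mitotic WT libraries and without replicate 2 of the asynchronous WT libraries, with adjusted p from 0.0624 to 0.203 in these and from 6.38e-05 over all alternatives. S38A cells had 747.2 and 651.6 CPM in the mitotic state, against 1247 and 1362 CPM in the asynchronous state, a fall as in S38D cells (log2 -0.90, edgeR adjusted p = 4.98e-07). The fall was thus shared by both substitutions.

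Against S38A cells the lowest p for a more positive change was that of ENSMUSG00000025203.5. It had 1202 and 1035 CPM in mitotic S38D cells and 1118 and 1236 CPM in asynchronous S38D cells, which overlapped. In S38A cells it was at 604.7 and 569.5 CPM in the mitotic libraries, against 1255 and 1187 CPM in the asynchronous ones, which did not overlap. The difference was 0.98 ± 0.18 (SE, edgeR adjusted p = 0.00319), and without replicate 1 of the mitotic S38D libraries its adjusted p was 0.0743, the highest over the alternatives, whose lowest was 0.000678. WT cells had 1405 and 1607 CPM in the mitotic libraries, against 1962 and 1960 CPM in the asynchronous ones, and the difference of S38D from WT cells, 0.30, did not pass (edgeR adjusted p = 0.825).

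For ENSMUSG00000091405.2 the mitotic S38D libraries held 4579 and 4946 CPM, against 2952 and 2574 CPM in the asynchronous ones. Mitotic S38A cells had 2356 and 2538 CPM, against 2423 and 2627 CPM in asynchronous S38A cells. The states were apart in S38D cells and overlapped in S38A cells. The difference was 0.83 ± 0.16 (SE, edgeR adjusted p = 0.00319), and it did not pass without replicate 2 of the mitotic S38D libraries (adjusted p = 0.0813) or replicate 1 of the mitotic S38A libraries (adjusted p = 0.0807), with a lowest value of 0.000498 over the alternatives. The gene rose in WT cells too, with 3461 and 3744 CPM in the mitotic libraries, against 2647 and 2296 CPM in the asynchronous ones (log2 0.55, edgeR adjusted p = 0.000192), so the rise was not particular to S38D cells.

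Among more negative changes, ENSMUSG00000026234.12 had 808.9 and 866.5 CPM in mitotic S38D cells, against 1578 and 1294 CPM in asynchronous S38D cells. S38A cells had 2307 and 2302 CPM in the mitotic state, against 1748 and 1970 CPM in the asynchronous state. The order of the states was opposite in the 2 genotypes, but the rise in S38A cells did not itself pass (log2 0.31, edgeR adjusted p = 0.0699). WT cells had 543.3 and 603.8 CPM in the mitotic libraries, against 844.4 and 1088 CPM in the asynchronous ones, a log2 change of -0.75 beside -0.78 in S38D cells. The fall was thus shared with WT cells. The difference from S38A cells was -1.09 ± 0.18 (SE, edgeR adjusted p = 0.000657), and its adjusted p stayed between 3.83e-07 and 0.0194 over the alternatives.

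The other was ENSMUSG00000037815.6, a gene of low level in mitotic S38D cells. It had 1 and 4 reads there, or 3.82 and 14.0 CPM, against 71.8 and 68.7 CPM in asynchronous S38D cells, whereas S38A cells had 74.7 and 90.1 CPM in the mitotic and 75.7 and 71.2 CPM in the asynchronous state. The states were far apart in S38D cells and overlapped in S38A cells. The difference was -3.05 ± 0.61 (SE, edgeR adjusted p = 0.00569), but DESeq2 gave an adjusted p of 0.381, and without replicate 1 of the mitotic S38D libraries it was 0.160, with a lowest value of 0.000589 over the alternatives. The difference itself was -2.44 without replicate 1 and -4.23 without replicate 2 of the mitotic S38D libraries. In WT cells the gene also fell (log2 -1.12, edgeR adjusted p = 0.0215), with 20.1 and 51.8 CPM in the mitotic libraries, against 101.6 and 66.3 CPM in the asynchronous ones, and the difference of S38D from WT cells did not pass (adjusted p = 0.597).

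**Figure D5:**
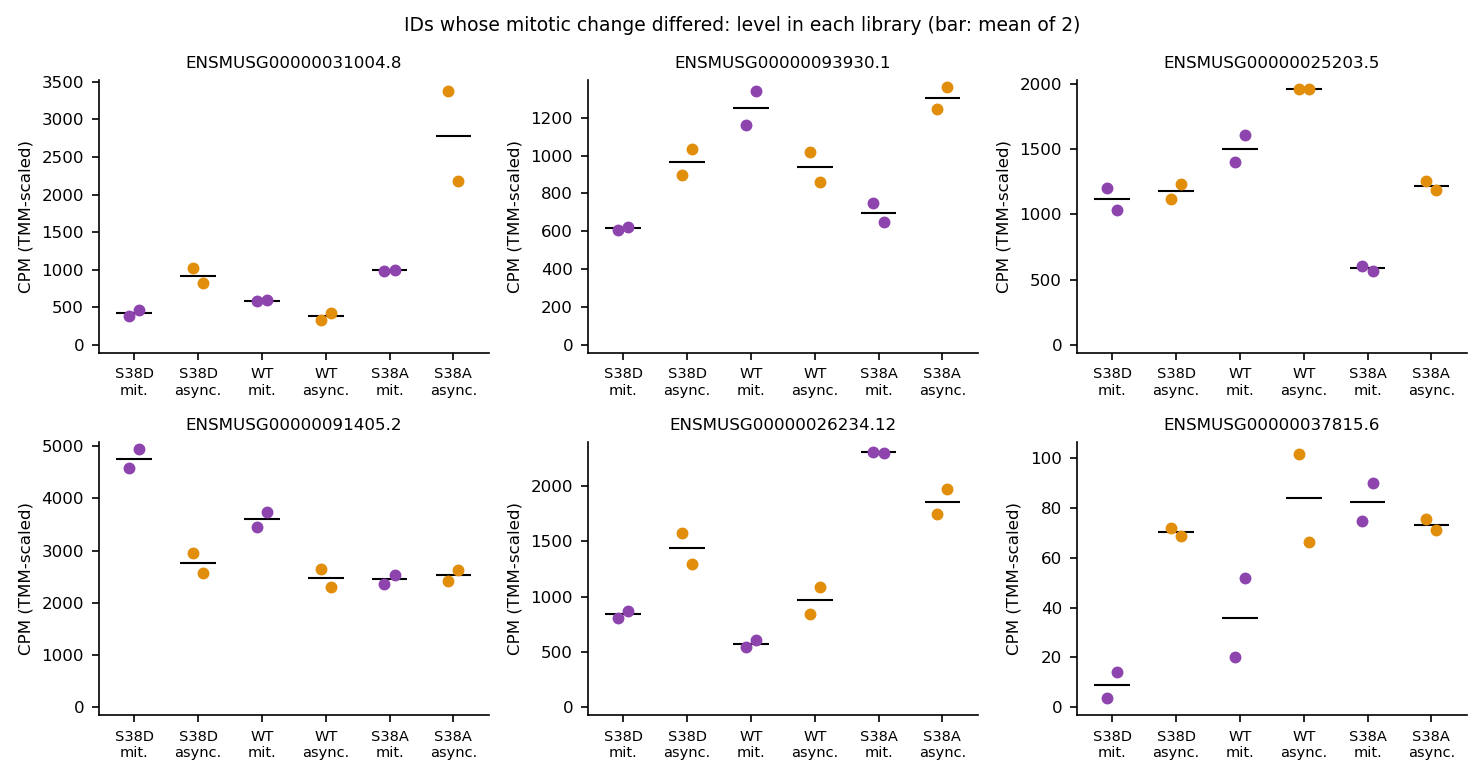
TMM-scaled CPM of each library (points) and the mean of 2 libraries (bars) for the 2 genes named against WT cells (first 2 panels) and the 4 named against S38A cells. ENSMUSG00000031004.8 is lower in mitotic than in asynchronous S38D cells and higher in mitotic than in asynchronous WT cells, with no overlap in either.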

How the data were processed

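The authors deposited 1 file of raw read counts per library, in whole numbers, over 22520 Ensembl gene IDs with version. Per the submitters' processing notes, HTSeq 0.9.1, STAR 2.5.3a, Bowtie2 2.3.2, DESeq2 1.18.1 and bcl2fastq 2.16.0.10 were used with the mouse build mm10. Their roles, parameters and use of strand are not given in the sources used here. Reads of overlapping genes or close paralogs may thus be split or lost. Per the labels' protocols, footprints came from RNase I digestion with cycloheximide present, and a gel cut set their length. Summary rows (no feature, ambiguous, not unique) entered neither library sizes nor tests. PCR copies could not be separated, and the interval and the floor given cover counting error alone.

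The main test was that of edgeR 4.0.16 in R 4.3.3 (TMM, quasi-likelihood F test, filterByExpr with a minimum count of 10), which kept 6692 of 11680 IDs with a read. All 12 libraries formed 6 groups in 1 model, since groups of 2 give little estimate of the spread alone; the common biological coefficient of variation was 0.0868. Standard errors are the log2 change over the square root of F. CPM are TMM-scaled, and log2 CPM used a prior count of 2. The test was also run on simulated counts, where it missed many of the changes put in and made some false calls. DESeq2 1.42.0 was an alternative. Phase lists came from scran 1.30.0 and hold genes first on balance in 1 phase's pairs and second on balance in both others (9220 G1, 4496 S and 7331 G2M pairs).

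The reference table had 0 Ensembl IDs in its 49997 rows, so symbol lists (cell cycle, ribosomal, B cell and other cell type genes) and naming by symbol were not applied. The naming rule was reduced to at most 2 IDs per direction. Of the genes past the threshold with a mean CPM of 10 or more, it took between states the largest log2 changes without overlap of libraries, and between genotypes the lowest p. The members and lists were chosen with earlier results of these data known. The labels do not say whether replicate numbers pair the libraries. Deviations of same-numbered libraries correlated at -0.04 in S38D, -0.09 in WT and 0.03 in S38A cells. With 2 libraries per group this cannot exclude shared cultures or days.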

Additional observations from a re-analysis of the deposited data

Results flagged for a closer look

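The test of a difference between genotypes in the mitotic change singled out 4 genes between S38D and WT cells and 16 between S38D and S38A cells. Between S38D and WT cells the log2 difference was -1.72 for ENSMUSG00000031004.8 and -1.07 for ENSMUSG00000093930.1. Between S38D and S38A cells it was 0.98 for ENSMUSG00000025203.5, 0.83 for ENSMUSG00000091405.2, -1.09 for ENSMUSG00000026234.12 and -3.05 for ENSMUSG00000037815.6. Of these 6, ENSMUSG00000031004.8 and ENSMUSG00000026234.12 passed in all alternatives run.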

How the results depend on the processing

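No gene given by ID changed direction under an alternative. The balance of 708 higher and 727 lower genes turned to 774 and 667 with DESeq2's size factors, and the G1 list's median log2 change turned from 0.06 to -0.01 without replicate 1 of the asynchronous S38D libraries. The count of 1435 genes changed in S38D cells was 749 with DESeq2, which left 2854 adjusted p-values unset (ENSMUSG00000003545.3, ENSMUSG00000020672.14 and ENSMUSG00000079355.5 among them), and 782 to 1276 with 1 S38D library left out. The other settings, thinning (chosen after seeing the data) included, gave 1221 to 1442. The difference from WT cells (4 genes) was 2 with DESeq2, 7 with no filter and 1 to 14 with a library left out. That from S38A cells (16 genes) was 3 with DESeq2, 38 with no filter and 4 to 35 with a library left out; the causes were not tested. A lone library left in a group was assumed to vary like the others. A replicate block within genotype gave 1400 genes, 5 against WT cells and 24 against S38A cells, although the labels do not say that the numbers pair the libraries. Counting depth limits low genes most.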
